A study of Drosophila melanogaster with 21 samples.

Results

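The neural stem cells of the Drosophila embryo, called neuroblasts, are set apart from the surface epithelium of the embryo by a short cascade of transcription factors and then divide unequally. The genes described here are 10 that mark these steps, chosen by name: scute (sc) and lethal of scute (l(1)sc), the Notch targets E(spl)m8-HLH and E(spl)mgamma-HLH, the neuroblast transcription factors asense (ase), worniu (wor) and deadpan (dpn), and the asymmetric division genes miranda (mira), prospero (pros) and inscuteable (insc). They are 10 of the 17869 FlyBase genes, and of the 23932 features in all, that the table of total RNA counts holds. All 10 passed the filter on low counts and stood among the 10238 features tested. In the RNA immunoprecipitation (RIP) table, which holds 4928 transcripts of 2168 genes, mira and pros were present with 6 transcripts between them.

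The series concerns topoisomerase 3 beta (Top3beta), an enzyme that changes the topology of both DNA and RNA. Total RNA came from whole embryos of 4 genotypes, 3 samples each. They were Top3b26, an allele of the gene; Y332F, in which a tyrosine is replaced by a phenylalanine; delRGG, labelled as a deletion of the RGG part of the protein; and wild type (WT). RIP was done on embryos that carried the protein fused to eGFP, with 3 samples of the Y332F form (Y332F-eGFP) and 6 of the form without that change (Top3b-eGFP). Age of the embryos, their number per sample and the promoter of the fusion are not given in the sources used here. Nothing in the labels says that samples of a genotype came from separate collections, so the p-values measure the spread between these samples, which may be technical.

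In the epithelium, proneural proteins of the basic helix-loop-helix class such as Scute and Lethal of scute give groups of cells the ability to become neural. Signalling through Notch then switches on repressors of the Enhancer of split complex in the neighbours of each future neuroblast. In the neuroblast, Inscuteable links the apical Par complex to the proteins that orient the spindle, and Miranda carries Prospero to the basal side, from where it passes to the smaller daughter and ends self-renewal.

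Total counts per sample ran from 22400118 to 31125584, and 3 counts, used here as the floor, correspond to between 0.0965 and 0.142 CPM (counts scaled to a common library size, with TMM factors). Floors cover counting error only. Counts of the 10 genes ran from 14 for ase in Top3b26 replicate 2 to 1720 for insc in delRGG replicate 1. Top3beta averaged 22.1 ± 1.11 CPM in Top3b26, 125 ± 19.1 in Y332F, 134 ± 8.35 in delRGG and 114 ± 17.0 in WT (SD, n = 3 each), and among the mutants it was called lower than WT in Top3b26 (log2 fold change -2.37, SE 0.13, edgeR adjusted p 1.12e-06). The samples also differed in transcripts that mark differentiated tissue. A score from 15 muscle, cuticle and tracheal genes, given as the mean log2 CPM of those genes centred over the samples, lay between -2.27 and -0.933 in Top3b26, between -1.17 and -0.424 in Y332F, between -1.45 and 1.91 in delRGG, and between 1.43 and 2.89 in WT. Summed over 12 neuron markers, the level was 98.0 to 170.5 CPM in Top3b26, 147 to 188 CPM in Y332F, 158 to 491 CPM in delRGG and 430 to 843 CPM in WT. The scores of Top3b26 and Y332F did not overlap with those of WT, so a fit with both score and genotype separates them poorly there. In bulk embryo RNA, fewer cells of a type and less of an RNA per cell cannot be told apart.

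Individual libraries stood apart for several of the 10 genes. Top3b26 replicate 2 was below 0.5 times the mean of the other Top3b26 samples for 6 of them, namely ase (0.233 times), E(spl)mgamma-HLH (0.248), mira (0.279), E(spl)m8-HLH (0.281), pros (0.298) and wor (0.329). In delRGG replicate 1 another set was low: sc stood at 0.159, l(1)sc at 0.226, dpn at 0.37, E(spl)mgamma-HLH at 0.443 and E(spl)m8-HLH at 0.457 times the mean of the other delRGG samples. In delRGG replicate 2, sc was 5.38 times and dpn 2.4 times that mean. The late marker score was lowest of all in Top3b26 replicate 2 (-2.27) and highest within delRGG in replicate 1 (1.91). The part of these differences in the comparisons below was not tested; values without these libraries stand beside the results or, as ranges, with the effects of processing at the end.

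Set against WT, 1 of the 10 genes was called in each mutant at an adjusted p under 0.05 (edgeR quasi-likelihood test, Benjamini-Hochberg over all features). In Top3b26 it was pros, which was lower; in Y332F and in delRGG it was insc, which was higher. The share of all tested features called was 57.1% for Top3b26, 43.5% for Y332F and 5.87% for delRGG, so 1 of 10 lay below the background in Top3b26 and Y332F and near it in delRGG. Split by direction, the background was 23.5% higher and 33.7% lower in Top3b26, 15.3% higher and 28.2% lower in Y332F, and 3.17% higher and 2.70% lower in delRGG. The log2 fold changes of the 10 genes had a median of -0.433 in Top3b26, against -0.037 over all features tested. In Y332F the median of the 10 genes was -0.332, against -0.038 over all features, and in delRGG it was -0.047, against -0.039. The sign was positive for 1 of 10 genes in Top3b26, 2 of 10 in Y332F and 5 of 10 in delRGG. Groups did not overlap for 1 gene between Top3b26 and WT, 2 between Y332F and WT and 1 between delRGG and WT, where 71.0%, 57.2% and 24.6% of all features in the same comparisons did not.

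**Figure D1:**
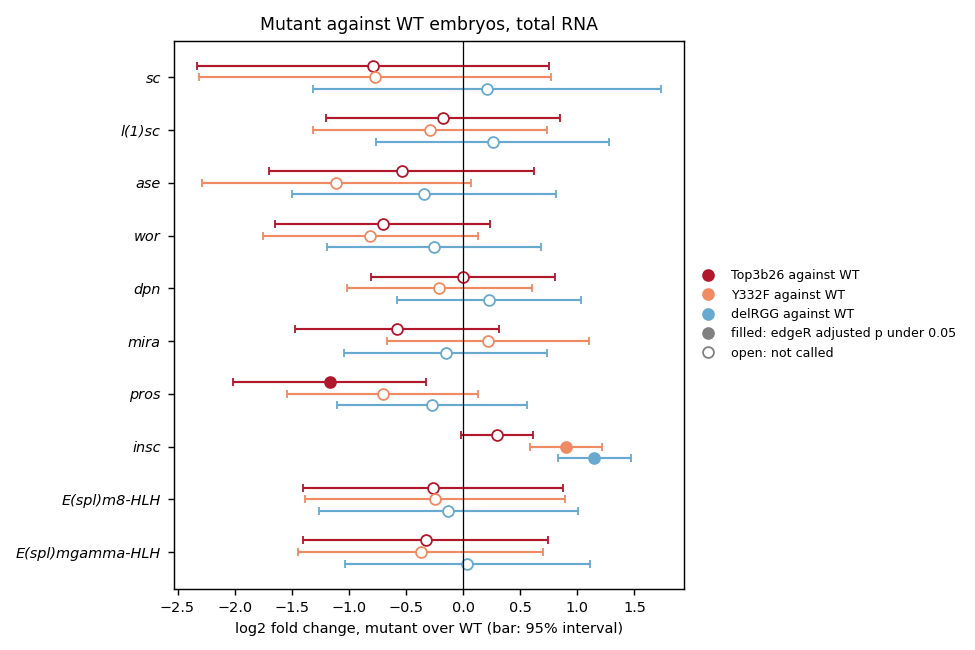
Log2 fold changes of the 10 genes (rows) for Top3b26, Y332F and delRGG against WT, with 95% intervals as bars and filled points for calls at an adjusted p under 0.05. The called points are pros in Top3b26 at -1.17 and insc in Y332F at 0.90 and delRGG at 1.15, and the interval of every other point includes 0.

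The change that held most firmly was that of insc, which encodes the adaptor of the apical complex. It was measured at 32.3, 26.0 and 32.0 CPM in Top3b26, at 49.2, 44.8 and 43.3 CPM in Y332F, at 57.9, 47.6 and 57.8 CPM in delRGG, and at 22.4, 21.4 and 29.7 CPM in WT. Every Y332F and delRGG sample was above every Top3b26 and WT sample, while Top3b26 and WT overlapped. The means were 30.1 ± 3.54 CPM in Top3b26, 45.8 ± 3.03 in Y332F, 54.4 ± 5.93 in delRGG and 24.5 ± 4.56 in WT (SD, n = 3 each). Against WT, insc was 1.87-fold higher in Y332F (log2 fold change 0.90, SE 0.14, 95% interval 0.583 to 1.218, edgeR adjusted p 0.00256). In delRGG it was 2.22-fold higher than in WT (1.15, SE 0.15, interval 0.831 to 1.469, edgeR adjusted p 0.00129). In Top3b26 the difference from WT was 0.29 (SE 0.14, interval -0.022 to 0.611, edgeR adjusted p 0.0993) and was not called. That last value depended on single libraries, since it was called without Top3b26 replicate 2 (0.44, edgeR adjusted p 0.0239) and without WT replicate 3 (0.46, edgeR adjusted p 0.0205).

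**Figure D2:**
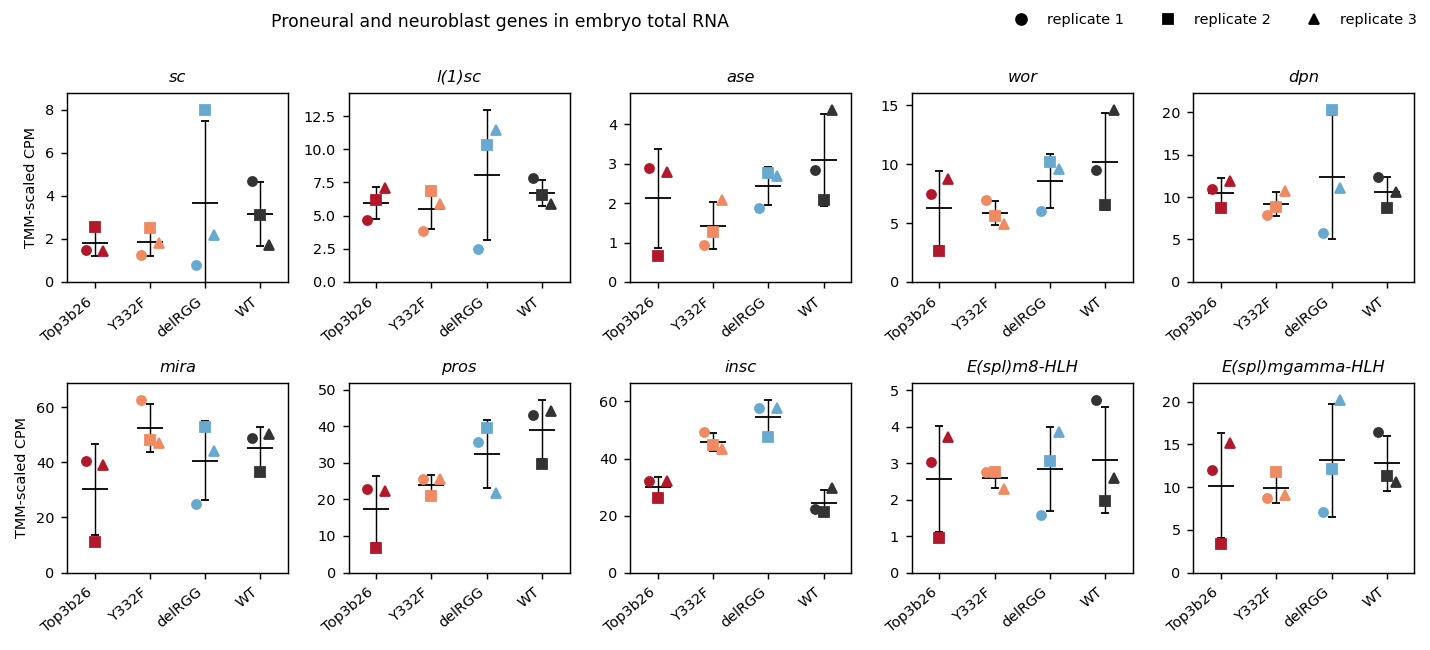
Level of each of the 10 genes in CPM (vertical axes, starting at 0) in Top3b26, Y332F, delRGG and WT; points are samples, and lines give the mean and SD of 3 samples. The 6 Y332F and delRGG points of insc, from 43.3 to 57.9 CPM, all stand above the 6 points of Top3b26 and WT, and for sc, l(1)sc and dpn the delRGG points spread widest.

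The mutants also differed from one another in insc. Between Y332F and Top3b26 it was the 1 called gene of the 10, where 7.27% of all features were called (3.15% higher and 4.11% lower), and it was 1.52-fold higher in Y332F (log2 fold change 0.61, SE 0.14, edgeR adjusted p 0.0258). Between delRGG and Top3b26 it was again the 1 called gene, where 28.3% of all features were called (17.3% higher and 10.9% lower), and it was 1.81-fold higher in delRGG (0.86, SE 0.14, edgeR adjusted p 0.00308). Between delRGG and Y332F the difference was 0.25 (SE 0.14, interval -0.064 to 0.563, edgeR adjusted p 0.31), and the samples overlapped. The call between Y332F and Top3b26 was lost without Top3b26 replicate 2 (0.53, edgeR adjusted p 0.0599), without Y332F replicate 1 (0.55, edgeR adjusted p 0.104) and without Y332F replicate 3 (0.64, edgeR adjusted p 0.0522). The calls of insc in Y332F and delRGG against WT, and in delRGG against Top3b26, were kept in 15 of 15 alternatives each. These 6 comparisons share their samples and are not independent of one another.

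Over all samples, the order by insc differed from the order by the late marker score. Within Top3b26 the orders were the same, and within WT the sample with the highest score also had the highest insc. In delRGG the late marker score was 1.91, 0.562 and -1.45 in replicates 1 to 3, where insc stood at 57.9, 47.6 and 57.8 CPM. With the score as a further term in the fit, insc was 1.07 on the log2 scale in Y332F against WT (edgeR adjusted p 0.0183). In delRGG against WT it was 1.26 (edgeR adjusted p 0.00127). Scores of Y332F and WT do not overlap, so the fit separates score and genotype poorly for that mutant. The part of differentiation in the level of insc was not tested. In the RefSeq gene table sktl, which encodes a phosphatidylinositol phosphate kinase, lies inside insc. The strand setting of the counting is not given in the sources used here, so reads of both genes may be confused. For sktl the counts gave 202.7, 190.8 and 198.3 CPM in Top3b26, 222.8, 233.4 and 194.6 CPM in Y332F, 202.5, 157.9 and 182.7 CPM in delRGG, and 189.0, 197.1 and 176.1 CPM in WT. It differed from WT by 0.07, 0.21 and -0.05 on the log2 scale in Top3b26, Y332F and delRGG (edgeR adjusted p 0.519, 0.091 and 0.746), and groups overlapped in all 3 comparisons. WT columns carry the letter C in their labels and all mutant columns the letter D; if these letters mark sets of libraries, set and genotype cannot be told apart for differences from WT, whereas the differences of Y332F and delRGG from Top3b26 lie within the letter D.

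**Figure D3:**
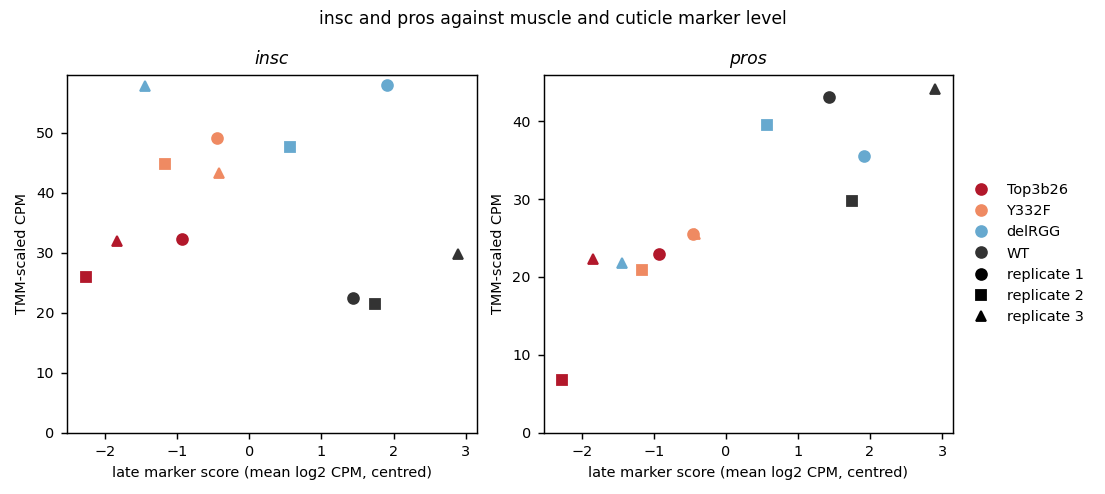
Level of insc and pros in CPM against the late marker score of each of the 12 total RNA samples, with genotypes marked by colour and replicates by symbol. Samples of insc form an upper band (Y332F and delRGG, 43.3 to 57.9 CPM) and a lower band (Top3b26 and WT, 21.4 to 32.3 CPM) at both low and high scores.

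For pros, whose product is a homeodomain factor, the levels were 22.9, 6.73 and 22.3 CPM in Top3b26, 25.5, 20.9 and 25.5 CPM in Y332F, 35.6, 39.5 and 21.8 CPM in delRGG, and 43.1, 29.8 and 44.2 CPM in WT. All Top3b26 and all Y332F samples were below all WT samples, and delRGG overlapped with WT. The means were 17.3 ± 9.16 CPM in Top3b26, 24.0 ± 2.67 in Y332F, 32.3 ± 9.29 in delRGG and 39.0 ± 8.02 in WT (SD, n = 3 each). Against WT, pros was lower in Top3b26 (log2 fold change -1.17, SE 0.38, interval -2.013 to -0.325, edgeR adjusted p 0.0227). Y332F differed from WT by -0.70 (SE 0.38, edgeR adjusted p 0.153) and delRGG by -0.27 (SE 0.38, edgeR adjusted p 0.649), and neither was called. The value in Top3b26 rested partly on single libraries: it was -0.74 without Top3b26 replicate 2 (edgeR adjusted p 0.0425), -1.06 without WT replicate 1 (edgeR adjusted p 0.061) and -1.07 without WT replicate 3 (edgeR adjusted p 0.0623). With Top3b26 and WT fitted alone it was -1.21 (edgeR adjusted p 0.0618).

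By group, the lowest score and the lowest mean of pros were in Top3b26, and the highest of both were in WT. Within Top3b26 the samples had the same order by score and by pros, and within Y332F, delRGG and WT they did not. With the late marker score in the fit, pros was -0.11 in Top3b26 against WT (edgeR adjusted p 0.953) and 0.09 in Y332F against WT (edgeR adjusted p 0.957). In the same samples 12 of 12 neuron markers were called lower in Top3b26 and 11 of 12 in Y332F, with median log2 fold changes of -3.123 and -2.448. Scores in Top3b26 and Y332F do not overlap with WT, so the fit with the score separates score and genotype poorly. The part of these markers in the difference of pros was not tested. Between delRGG and Top3b26, pros was 0.90 higher in delRGG (SE 0.38, interval 0.057 to 1.737, edgeR adjusted p 0.0932) and was not called. That difference was 0.51 without Top3b26 replicate 2 (edgeR adjusted p 0.199), 0.31 with the late marker score in the fit (edgeR adjusted p 0.71) and 1.06 without delRGG replicate 3, where it was called (edgeR adjusted p 0.0473). By the RefSeq annotation pros is overlapped by 5 genes, KP78a, KP78b and 3 long non-coding RNAs, so reads from these could be counted for it.

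Transcripts of mira, which encodes the adaptor that carries Prospero, were at 40.3, 11.1 and 39.1 CPM in Top3b26, 62.4, 48.0 and 46.8 CPM in Y332F, 25.0, 52.7 and 44.1 CPM in delRGG, and 48.9, 36.4 and 50.1 CPM in WT. Each mutant overlapped with WT. The differences from WT were -0.58 in Top3b26 (SE 0.41, edgeR adjusted p 0.239), 0.22 in Y332F (SE 0.40, edgeR adjusted p 0.682) and -0.15 in delRGG (SE 0.40, edgeR adjusted p 0.813). Without Top3b26 replicate 2 the value in that mutant was -0.14 (edgeR adjusted p 0.704). All Y332F samples were above all Top3b26 samples, where 30.8% of all features did not overlap; the log2 difference of 0.79 (SE 0.41, interval -0.098 to 1.685, edgeR adjusted p 0.348) was not called, and it was 0.42 without Top3b26 replicate 2. The differences of pros and mira from WT had opposite signs in Y332F, and neither was called. Hs6st overlaps mira in the RefSeq gene table, so its reads could be counted for mira. For Hs6st the differences from WT were -0.03, -0.04 and -0.11 in Top3b26, Y332F and delRGG (edgeR adjusted p 0.72, 0.664 and 0.336).

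Among the proneural genes, sc was at 1.48, 2.56 and 1.46 CPM in Top3b26, 1.25, 2.52 and 1.80 CPM in Y332F, 0.807, 7.999 and 2.17 CPM in delRGG, and 4.68, 3.10 and 1.71 CPM in WT. Its range in delRGG, where the highest sample was 9.91 times the lowest, covered all other samples. The log2 differences from WT were -0.79 in Top3b26 (SE 0.70, edgeR adjusted p 0.35), -0.77 in Y332F (SE 0.70, edgeR adjusted p 0.39) and 0.21 in delRGG (SE 0.69, edgeR adjusted p 0.857), and the last became -1.09 (edgeR adjusted p 0.354) without delRGG replicate 2. For l(1)sc the values were 4.66, 6.16 and 7.05 CPM in Top3b26, 3.82, 6.86 and 5.84 CPM in Y332F, 2.46, 10.3 and 11.5 CPM in delRGG, and 7.80, 6.54 and 5.88 CPM in WT. All groups overlapped, with log2 differences from WT of -0.18, -0.29 and 0.26 in Top3b26, Y332F and delRGG (edgeR adjusted p 0.754, 0.633 and 0.729). With SEs near 0.70 for sc, the depth and spread of these samples left the difference from WT between -2.332 and 0.753 in Top3b26.

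The Enhancer of split genes encode repressors of proneural function. E(spl)m8-HLH had 3.02, 0.948 and 3.73 CPM in Top3b26, 2.76, 2.76 and 2.29 CPM in Y332F, 1.58, 3.06 and 3.86 CPM in delRGG, and 4.72, 1.95 and 2.61 CPM in WT. E(spl)mgamma-HLH had 12.0, 3.37 and 15.2 CPM in Top3b26, 8.74, 11.8 and 9.07 CPM in Y332F, 7.13, 12.1 and 20.1 CPM in delRGG, and 16.5, 11.3 and 10.6 CPM in WT. Both overlapped between every mutant and WT, and Top3b26 replicate 2 was the lowest of the 12 samples for both. Differences from WT were -0.27, -0.25 and -0.13 for E(spl)m8-HLH (edgeR adjusted p 0.672, 0.715 and 0.882) and -0.33, -0.37 and 0.04 for E(spl)mgamma-HLH (edgeR adjusted p 0.581, 0.558 and 0.969) in Top3b26, Y332F and delRGG. Without Top3b26 replicate 2 the sign of both values in that mutant turned, to 0.15 and 0.12.

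Of the neuroblast transcription factors, ase, a relative of the proneural genes that is expressed in neural precursors, was at 2.90, 0.664 and 2.80 CPM in Top3b26, 0.946, 1.26 and 2.08 CPM in Y332F, 1.88, 2.76 and 2.68 CPM in delRGG, and 2.83, 2.08 and 4.36 CPM in WT. It had the lowest mean in Y332F, 1.43 ± 0.587 CPM, against 3.09 ± 1.16 CPM in WT (SD, n = 3 each), a difference of -1.11 (SE 0.54, edgeR adjusted p 0.113) that was not called. In Top3b26 the difference of ase was -0.54 (edgeR adjusted p 0.397), or -0.06 without replicate 2, and in delRGG it was -0.34 (edgeR adjusted p 0.683). The Snail family gene wor was at 7.43, 2.66 and 8.71 CPM in Top3b26, 6.93, 5.64 and 4.90 CPM in Y332F, 5.99, 10.1 and 9.61 CPM in delRGG, and 9.53, 6.54 and 14.6 CPM in WT. Its mean was below that of WT in each mutant, with log2 differences of -0.70, -0.81 and -0.25 in Top3b26, Y332F and delRGG (edgeR adjusted p 0.178, 0.144 and 0.71), and all groups overlapped. Single libraries set much of these values for wor: Top3b26 was at -0.29 without Top3b26 replicate 2 and at -0.36 without WT replicate 3, Y332F was at -0.46 without WT replicate 3, and delRGG was at -0.05 without delRGG replicate 1 and at 0.09 without WT replicate 3.

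The gene dpn, which encodes a repressor of the Hairy family that maintains neuroblasts, was at 10.97, 8.68 and 11.9 CPM in Top3b26, 7.87, 8.84 and 10.7 CPM in Y332F, 5.79, 20.2 and 11.1 CPM in delRGG, and 12.3, 8.75 and 10.6 CPM in WT. Top3b26 and WT averaged alike, 10.5 ± 1.66 and 10.5 ± 1.79 CPM (SD, n = 3 each), and delRGG spread 3.5 times between its lowest and highest sample. Differences from WT were -0.00, -0.21 and 0.23 in Top3b26, Y332F and delRGG (edgeR adjusted p 0.996, 0.665 and 0.694). By the RefSeq annotation asRNA:CR44275, sisRNA:4 and sisRNA:CR46360 overlap dpn, so reads from these could be counted for it. The genes sc and l(1)sc are neighbours on the X chromosome with ase close by, and CG32816 overlaps all 3 of them in the RefSeq gene table, so without a known strand setting their low counts may be mixed. For CG32816 the difference from WT was -1.19 in Top3b26 (4.77 against 10.9 CPM, edgeR adjusted p 0.0278), -2.05 in Y332F (2.63 CPM, edgeR adjusted p 0.00742) and -0.60 in delRGG (7.16 CPM, edgeR adjusted p 0.36). The WT samples of CG32816 were at 7.38, 6.96 and 18.2 CPM, so its WT mean rested much on replicate 3.

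**Figure D4:**
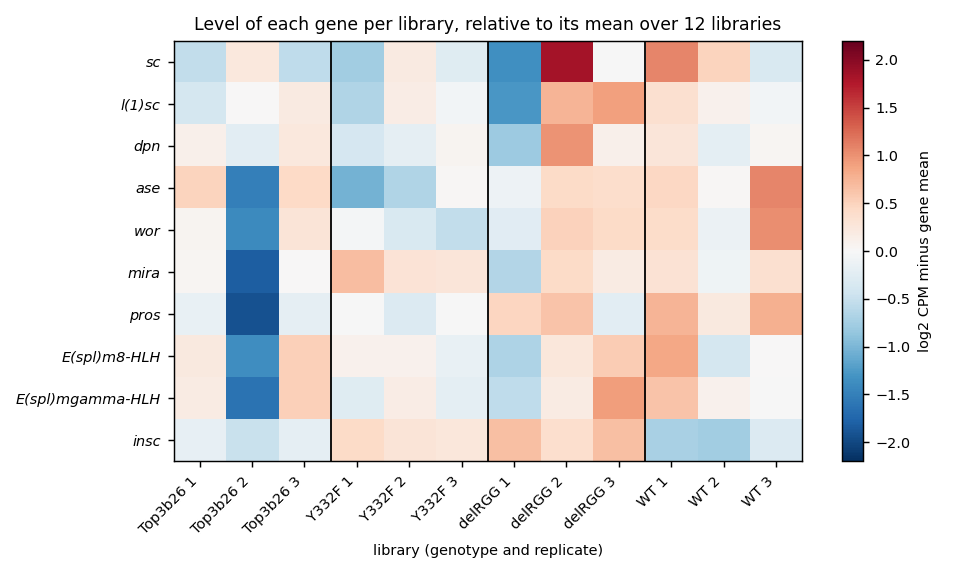
Log2 CPM of each of the 10 genes (rows) minus its mean over the 12 samples, in every sample (columns, by genotype). The row of insc is high in all Y332F and delRGG samples, and the columns of Top3b26 replicate 2 and delRGG replicate 1 are low for different genes.

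Between delRGG and Y332F none of the 10 genes was called by edgeR, with 0 at an unadjusted p under 0.05 and 0 called by DESeq2, where 2.46% of all features were called by edgeR (1.29% higher and 1.17% lower). None had groups that did not overlap, against 20.5% of all features. Between delRGG and Top3b26 all 10 log2 differences were positive, with a median of 0.431 against 0.032 over all features, 2 were under 0.05 unadjusted (pros and insc), and 1 was called. Groups did not overlap for 1 of the 10, insc, against 41.7% of all features. Between Y332F and Top3b26 the sign was positive for 5 of 10, with a median of -0.014 against 0.026 over all features. Comparisons that share a genotype share its libraries, and Top3b26 replicate 2, low for 6 of the genes, enters both comparisons with Top3b26.

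The wider pathway was read from 12 lists of 130 genes, of which 124 were matched by symbol and 118 were tested. Their counts of calls are to be read against the shares of all features, 57.1% in Top3b26 (23.5% higher, 33.7% lower), 43.5% in Y332F (15.3% higher, 28.2% lower) and 5.87% in delRGG. Among 10 further proneural and precursor genes, da, the partner of all proneural proteins, was called higher in Top3b26 (0.16, edgeR adjusted p 0.0317) and Y332F (0.24, edgeR adjusted p 0.0102). From the same list emc, an inhibitor of proneural proteins, was lower in all 3 mutants, by -0.77 in Top3b26 (edgeR adjusted p 0.00121), -0.73 in Y332F (edgeR adjusted p 0.00293) and -0.51 in delRGG (edgeR adjusted p 0.0326). In CPM, emc was at 50.3, 41.3 and 52.7 in Top3b26, 49.1, 46.6 and 52.3 in Y332F, 57.5, 64.5 and 50.4 in delRGG, and 80.7, 73.5 and 91.2 in WT, so that no mutant sample reached any WT sample. The call in delRGG was kept in 7 of 15 alternatives and lost without delRGG replicate 1 or 3 and without any one WT sample (adjusted p between 0.0517 and 0.129). The other 8 genes of that list were not called in any mutant, and emc was the 1 gene of the 12 lists called in delRGG by edgeR, while DESeq2 called 3 asymmetric division genes and 1 maternal gene there. With the late marker score in the fit, emc was -0.41 in Top3b26 (edgeR adjusted p 0.327), -0.47 in Y332F (edgeR adjusted p 0.155) and -0.35 in delRGG (edgeR adjusted p 0.228).

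Of 13 Enhancer of split and Bearded family genes, 5 were called in Top3b26 and 2 in Y332F, both below the shares of all features called (57.1% and 43.5%). The co-repressor gro was higher in Top3b26 (0.35, edgeR adjusted p 0.0157) and Y332F (0.29, edgeR adjusted p 0.0438), and E(spl)mbeta-HLH was lower in both (-1.60, edgeR adjusted p 0.00646, and -1.27, edgeR adjusted p 0.0245). The Bearded family gene E(spl)m6-BFM was lower in Top3b26 (-2.29, edgeR adjusted p 0.0178). Counts of called genes in this list ran from 1 to 6 in Top3b26 and from 0 to 2 in Y332F as single libraries were left out, with the lowest counts without Top3b26 replicate 3 or WT replicate 3 in Top3b26, and without Y332F replicate 1 or 2 or WT replicate 3 in Y332F. Among 15 Notch signalling genes, 4 were higher and 3 lower in Top3b26, and 2 were higher and 2 lower in Y332F, again fewer in proportion than among all features. Higher were O-fut1, which modifies Notch (0.37 in Top3b26, edgeR adjusted p 0.0271), H, the antagonist of the pathway (0.35 in Top3b26, edgeR adjusted p 0.0275, and 0.34 in Y332F, edgeR adjusted p 0.0429), and the receptor gene N in Y332F (0.48, edgeR adjusted p 0.0233). The lowest were Kul, which encodes a metalloprotease (-1.97 in Top3b26, edgeR adjusted p 0.00752, and -1.98 in Y332F, edgeR adjusted p 0.0137) and fng, which encodes a glycosyltransferase that acts on Notch (-2.49, edgeR adjusted p 0.00883, and -2.03, edgeR adjusted p 0.0276). Leaving out single libraries moved the counts of this list between 3 and 7 in Top3b26 (lowest without Top3b26 replicate 2 or 3 or WT replicate 3) and between 0 and 4 in Y332F (lowest without Y332F replicate 2).

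The partners of insc, mira and pros in asymmetric division form a list of 15 genes, of which 6 were higher and none lower in Top3b26, and 5 were higher and 2 lower in Y332F (median log2 fold changes 0.236 and 0.186). Of all features 57.1% were called in Top3b26 and 43.5% in Y332F, so the totals of this list were below that share in Top3b26 and near it in Y332F. By direction, 23.5% of all features were higher in Top3b26 and 15.3% in Y332F, and the list lay above both shares. Lower were 33.7% and 28.2% of all features, and the list lay below both. The mitotic kinase gene aurA was higher in Top3b26 (0.39, edgeR adjusted p 0.00495) and in Y332F (0.45, edgeR adjusted p 0.00601). The junction gene cno was higher in Top3b26 (0.36, edgeR adjusted p 0.0165), Galphai, a subunit of the spindle orientation complex, was higher in Y332F (0.34, edgeR adjusted p 0.00926), and l(2)gl was lower in Y332F (-0.32, edgeR adjusted p 0.0402). The count of called genes ranged from 2 without WT replicate 3 to 8 in Top3b26, and from 3 without WT replicate 3 to 7 in Y332F, as single libraries were left out. In this list pon, which encodes a protein that localises Numb basally, stood apart in Y332F. It was at 109, 91.9 and 94.7 CPM in Top3b26, 41.2, 31.6 and 29.2 CPM in Y332F, 125, 82.8 and 154 CPM in delRGG, and 101, 105 and 109 CPM in WT. All Y332F samples lay below all samples of the other genotypes. The differences were -1.63 for Y332F against WT (SE 0.20, edgeR adjusted p 0.000592), -1.54 for Y332F against Top3b26 (SE 0.20, edgeR adjusted p 0.000653) and 1.83 for delRGG against Y332F (SE 0.20, edgeR adjusted p 0.000485), each kept in 15 of 15 alternatives.

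Of 14 early neuroectoderm and temporal genes, 7 were lower and none higher in Top3b26 (median -1.069), while in Y332F 1 was higher and 1 lower (median -0.581); of all features 33.7% were lower in Top3b26 and 43.5% were called in Y332F. In Top3b26 they included grh, the last factor of the temporal series of neuroblasts (-1.46, edgeR adjusted p 0.00842), and svp, which closes the hunchback step (-1.77, edgeR adjusted p 0.0186). In Y332F hb, the earliest temporal factor, was higher (0.27, edgeR adjusted p 0.0341) and nub was lower (-1.05, edgeR adjusted p 0.0416). Without WT replicate 3 the count in Top3b26 was 2, and without Top3b26 replicate 2 it was 4. In Y332F it was 1 without Y332F replicate 1 and 0 without Y332F replicate 2 or 3 or WT replicate 1 or 3.

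Most markers of neurons and muscle were lower in Top3b26 and Y332F. In Top3b26 all 12 neuron markers, 5 of 7 glia markers and 9 of 10 muscle markers were lower, and in Y332F 11 of 12, 3 of 7 and 9 of 10 were, where 33.7% and 28.2% of all features were lower. The neuron gene Syt1 was at -4.71 (edgeR adjusted p 0.00167) in Top3b26 and -3.58 (edgeR adjusted p 0.00794) in Y332F, with para at -4.70 (edgeR adjusted p 0.00287) in Top3b26 and nSyb at -3.41 (edgeR adjusted p 0.012) in Y332F. The glia genes Gs2 (-2.60, edgeR adjusted p 0.00521) and wrapper (-2.19, edgeR adjusted p 0.0227) were lower in Top3b26, and Gs2 (-1.92, edgeR adjusted p 0.0241) and nrv2 (-1.78, edgeR adjusted p 0.0115) in Y332F. Muscle genes fell furthest at Mlc2, which was at -4.65 (edgeR adjusted p 0.00192) in Top3b26 and -3.51 (edgeR adjusted p 0.00892) in Y332F, beside bt in Top3b26 (-4.52, edgeR adjusted p 0.00295) and Tm2 in Y332F (-3.44, edgeR adjusted p 0.0104). No neuron, glia or muscle marker was called in delRGG by edgeR in the fit with all 12 samples, but 7 of 10 muscle markers were called there without delRGG replicate 1. In Y332F the neuron count was 4 without Y332F replicate 2 and 5 without WT replicate 3, and the muscle count was 4 without Y332F replicate 2. For glia it was 2 without Top3b26 replicate 2 and 3 without WT replicate 3 in Top3b26, and in Y332F 0 without Y332F replicate 2 and 1 without Y332F replicate 1 or WT replicate 3.

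All 5 tested cuticle and tracheal markers were lower in Top3b26 and in Y332F, among them TwdlT (-4.43, edgeR adjusted p 0.00946, and -3.35, edgeR adjusted p 0.0331) and obst-A (-4.53, edgeR adjusted p 0.00422, and -3.37, edgeR adjusted p 0.0175). Cpr49Aa and Cpr65Au were at 0 in all Top3b26 samples, and Cpr65Au in all delRGG samples. Both were under the filter on low counts and were not tested, so these zeros are not read as a difference from WT. Of the 3 fat body and gut markers tested, 3 were lower in Top3b26 and 2 in Y332F, with Jon65Aiii at -5.75 (edgeR adjusted p 0.00105) and -3.35 (edgeR adjusted p 0.00918). In every Top3b26 sample all 3 were under the floor, so the size of their fall there is uncertain. Jon65Aiii was at 0.0405 to 0.0643 CPM in Top3b26, and alphaTry and Amy-p reached at most 0.0322 CPM. Maternal transcripts were higher for 6 of 6 genes in Top3b26, with exu at 0.59 (edgeR adjusted p 0.0232) and osk at 0.51 (edgeR adjusted p 0.00367), and for 2 of 6 in Y332F, pgc at 0.66 (edgeR adjusted p 0.0112) and bcd at 0.36 (edgeR adjusted p 0.00886). Summed maternal levels were 2668 to 2872 CPM in Top3b26, 2470 to 2700 CPM in Y332F, 2097 to 2758 CPM in delRGG and 1894 to 2136 CPM in WT. Of 8 early zygotic markers 2 were lower in Top3b26, kni (-0.96, edgeR adjusted p 0.0336) and odd (-1.23, edgeR adjusted p 0.0111), and none was called in Y332F or delRGG by edgeR. Of all features, 23.5% were higher and 33.7% lower in Top3b26, and 15.3% higher and 28.2% lower in Y332F. The early zygotic count in Top3b26 was below that share, and these lists hold few genes. Calls of the cuticle and tracheal list in Y332F fell to 1 without Y332F replicate 1 and to 0 without Y332F replicate 2 or WT replicate 3. Those of the fat body and gut list fell to 1 without WT replicate 3 in Top3b26 and without Y332F replicate 1 or 2 or WT replicate 3 in Y332F, and to 2 in Top3b26 without any one Top3b26 sample.

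Of the calls of listed genes named above, 16 of 26 in Top3b26 and 11 of 25 in Y332F were kept whichever single sample was left out. Kept in both mutants were emc, aurA, Syt1, Mlc2 and Jon65Aiii, the last from values under the floor in Top3b26. Also kept were E(spl)mbeta-HLH, Kul, fng, grh, para, Gs2, bt, TwdlT, obst-A, osk and odd in Top3b26, and da, Galphai, pon, Tm2, pgc and bcd in Y332F. With the late marker score in the fit, edgeR called 0 of the 118 listed genes in Top3b26 (17 at an unadjusted p under 0.05), 1 in Y332F, which was pon (19 unadjusted), and 0 in delRGG (8 unadjusted). The same fit called 2.56%, 2.94% and 3.87% of all features in Top3b26, Y332F and delRGG. The score is itself the mean of 15 of the listed genes, so the loss of their calls was built in. In Top3b26 and Y332F the score does not overlap with WT, so the fit separates score and genotype poorly. No conclusion about the listed genes is drawn from the lost calls.

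For each of the 10 genes, the tested gene with the most similar pattern of log2 CPM over the 12 samples was sought among 8608 genes with a mean of at least 1 CPM, as a description. The closest pair was pros with ft, which encodes the protocadherin Fat (Pearson's r 0.995, Spearman's rho 0.972). Next came mira with yellow-e3 (0.971 and 0.825), sc with tsg (0.96 and 0.944), E(spl)mgamma-HLH with E(spl)m5-HLH of the same gene complex (0.959 and 0.783) and wor with sens (0.954 and 0.944). Further pairs were ase with msl-2 (0.937 and 0.853), l(1)sc with ac (0.924 and 0.783), insc with Caf1-105 (0.911 and 0.818), E(spl)m8-HLH with sca (0.899 and 0.776) and dpn with ato (0.856 and 0.636). All values come from the same libraries, so what a library shares across genes enters each of them.

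RIP measured the RNA that came down with the tagged protein, and here mira and pros could be followed. No input and no control without the tag is among the labelled samples, so binding cannot be told from background recovery. Among the 2141 genes present in RIP and tested in total RNA, the Top3b-eGFP signal of mira stood at percentile 45.35. That of pros stood at percentile 4.904, near the low end. By WT total RNA among the same genes, mira stood at percentile 24.01 and pros at percentile 20.78. The signal of mira, summed over its transcripts and scaled between samples by a median ratio, was 271, 386 and 443 in Y332F-eGFP. In the 6 Top3b-eGFP samples it was 365 at the lowest, 440.5 at the median and 575 at the highest. The groups overlapped. Means were 367 ± 87.5 in Y332F-eGFP (SD, n = 3) and 455 ± 76.5 in Top3b-eGFP (SD, n = 6), and the difference on the log2(value + 1) scale was -0.33 (SE 0.19, interval -0.73 to 0.08, limma adjusted p 0.198). For pros the signal was 27.0, 46.6 and 72.8 in Y332F-eGFP, and in Top3b-eGFP the lowest was 45.4, the median 75.4 and the highest 128. These groups overlapped too. Means were 48.8 ± 23.0 in Y332F-eGFP (SD, n = 3) and 75.0 ± 30.1 in Top3b-eGFP (SD, n = 6), with a difference of -0.63 (SE 0.38, interval -1.44 to 0.18, limma adjusted p 0.213).

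**Figure D5:**
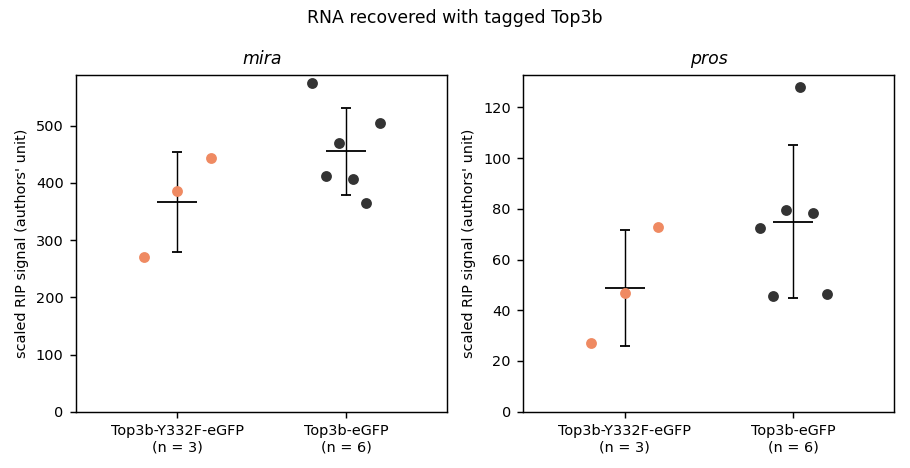
RIP signal of mira and pros, scaled by the median ratio, in 3 Y332F-eGFP and 6 Top3b-eGFP samples; points are samples, and lines give the mean and SD. The Y332F-eGFP samples lie lower on average for both genes and overlap with the Top3b-eGFP samples.

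Neither gene was called, where limma called 29.8% of the 2168 genes (13.0% higher and 16.7% lower). The reads behind the signal are unknown, so no counting interval can be given. None of the 6 transcripts was called on its own (limma adjusted p between 0.246 and 0.849), and the share of a gene's signal assigned to a transcript varied widely: FBtr0304607 of pros was listed at 0 in Top3b-eGFP replicates 1 to 3 and held 42.15%, 37.42% and 65.59% in replicates 4 to 6. The RIP signal and the total RNA counts are on separate scales, and beyond the percentiles given above levels were not compared between them.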

How the data were processed

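The 10 genes and all lists were chosen with earlier results of these data known. Total RNA (12 samples) was extracted with Trizol, made into libraries with the CORALL total RNA kit of Lexogen, and sequenced paired-end on a NovaSeq instrument, per the labels' protocols. The submitters' processing notes name bcl2fastq, HISAT2, featureCounts and DESeq2; versions, genome build, annotation and strand setting are not given in the sources used here, so no coordinates are printed. The authors deposited raw whole-number counts per feature. For RIP (9 samples) the deposited values are a signal per transcript normalized by the authors in a way not given in the sources used here; 3 of its 12 value columns, which no label matches, were left aside, and 1 column of each RIP group was matched by a bare number in the labels.

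Symbols came from a FlyBase table (99.6% of IDs matched), and overlapping genes from the RefSeq annotation (assembly Release 6 plus ISO1 MT). Of the listed genes, 6 were matched to no symbol and are not analysed here, and another 6 were under the filter. Counts were tested with edgeR 4.0.16 (R 4.3.3; filterByExpr with a minimum count of 10, TMM, quasi-likelihood fit on all 12 samples with genotype as the only factor), with adjustment by Benjamini-Hochberg over all tested features. A gene was called at an adjusted p under 0.05. SEs are the log2 fold change divided by the square root of F, and intervals are 95%. A rise or fall is relative to the median feature under TMM. RIP values were summed per gene, scaled by the median ratio (factors 0.60 to 1.67) because column sums differed (1414940 to 3429210), and tested with limma 3.58.1 (trend) on log2(value + 1), keeping genes whose mean reached 10; the design had assumed values on a common scale. That scale understates changes of low genes.

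Listed genes named are, per list and mutant, up to 2 with the highest and 2 with the lowest fold change among those called with a mean of at least 1 CPM; pon is shown in full, as are the values of emc, for their values. Alternatives were DESeq2 1.42.0, other scalings and filters, FlyBase genes alone, the compared groups alone, the late marker score or the replicate number as a term, and each sample left out; applying them to listed genes and list counts was added after seeing the data. The scripts were tested on simulated data before use. Figures used matplotlib 3.10.9.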

Additional observations from a re-analysis of the deposited data

How the results depend on the processing

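The number of the 10 genes called in Top3b26 against WT was 0 with the late marker score (where 2.56% of all features were called), 0 with the 2 groups alone (53.1% called), and 0 to 2 as single samples were left out. In Y332F against WT it was 2 with the 2 groups alone (insc and pros; 45.1% of features called) and 1 as samples were left out; in delRGG against WT it was 1 throughout. As samples were left out it ran from 0 to 1 in Y332F against Top3b26 and from 1 to 2 in delRGG against Top3b26. In delRGG against Y332F and in RIP it was 0 throughout.

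Among the 10 genes, signs turned where no call was made. For dpn in Top3b26 the value was 0.0053 with DESeq2, 0.049 without a filter and between -0.074 and 0.16 as samples were left out. In Y332F, pros was 0.093 with the late marker score. In delRGG, sc was -0.17 with the replicate block, -0.44 with the late marker score and -1.09 to 0.69 as samples were left out; l(1)sc was -0.74 with the score and -0.038 to 0.69, pros 0.20 with the score, and E(spl)mgamma-HLH -0.0096 with total count scaling, -0.0047 with a mean count of at least 50, -0.027 with the block, -0.58 with the score and -0.37 to 0.34 as samples were left out. Leaving out samples also turned wor (-0.43 to 0.092), dpn (-0.32 to 0.57), mira (-0.38 to 0.10) and E(spl)m8-HLH (-0.37 to 0.34) in delRGG, E(spl)m8-HLH in Y332F (-0.44 to 0.21), and E(spl)m8-HLH (-0.60 to 0.21) and E(spl)mgamma-HLH (-0.69 to 0.12) in Top3b26. With the score, listed genes turned in Top3b26 (O-fut1 -0.14, Kul 0.56, fng 0.56, svp 0.16, wrapper 0.43, TwdlT 1.31, obst-A 0.29) and in Y332F (fng 0.27, TwdlT 0.99, obst-A 0.34); TwdlT and obst-A are part of the score. The cause was not tested. Of 525 alternative values of the 10 genes 487 kept direction and side of the threshold, as did 645 of 808 of the listed genes. Most values of the 10 genes belong to differences that were not called in the first place. The call of pros in Top3b26 against WT was kept in 11 of 15 alternatives, and that of insc in Y332F against Top3b26 in 12 of 15. Of the 153 listed values that lost the call, 41 did so with the score.

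Replicate numbers are shared between genotypes in the labels. In no comparison did every same-numbered pair of samples deviate together, with a correlation over 0.1 in every pair. The mean correlation was 0.038 for Top3b26 and WT, 0.284 for Y332F and WT, and -0.504 for delRGG and WT. Single pairs ran from -0.652 (delRGG and WT) to 0.616 (delRGG and Top3b26). With so few pairs this cannot decide whether same-numbered samples share a collection or set. With the replicate block the number of genes called stayed at 1 in Top3b26, Y332F and delRGG against WT. Features called were then 6185, 4657 and 672, against 5849, 4449 and 601 without the block. In RIP the block was fitted on replicates 1 to 3 alone, which left out Top3b-eGFP replicates 4 to 6. That fit called 114 genes, against 645 in the main fit with all 9 samples. The effects of the block and of the fewer samples are not separated there. Under total count scaling the median of all features was -0.134 in Top3b26, -0.125 in Y332F and -0.078 in delRGG against WT. Depth limits ase, sc and E(spl)m8-HLH most, with fewer counts than the other genes.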

Other observations

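In RIP, some listed partners of the 10 genes differed between Y332F-eGFP and Top3b-eGFP; they are named here after their values were seen. Of 10 asymmetric division genes measured, 4 were lower with Y332F-eGFP and none higher, where 16.7% of all genes were called lower. They were mud, which links the spindle to the cortex (-0.85, limma adjusted p 0.018), scrib (-0.79, limma adjusted p 0.0285), cno (-0.72, limma adjusted p 0.0438) and brat, a translational repressor carried by Miranda (-0.49, limma adjusted p 0.0208). Of 6 Notch signalling genes, N (-1.15, limma adjusted p 0.0138), mam (-0.72, limma adjusted p 0.00954) and H (-0.56, limma adjusted p 0.0267) were lower and pen-2 was higher (1.31, limma adjusted p 0.0301). The values of da (-0.41, limma adjusted p 0.0458) and hb (-0.60, limma adjusted p 0.016) were lower as well. Each of these 10 genes lost its call in at least 1 alternative. Without scaling between samples all 10 lost it, and without the 2 samples labelled by a bare number 7. The fit with the replicate block, on replicates 1 to 3 alone, lost 9. In RIP, 65 of 204 alternative values of mira, pros and these genes lost the call. That total includes the values of mira and pros, which had no call to lose. In total RNA da, H and cno were called higher in Top3b26 and in Y332F, N and hb were called higher in Y332F, and mam, pen-2, mud, scrib and brat were called in no mutant; the tables were normalized separately.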
